A study of Mus musculus with 70 samples.

Results

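The nuclear genes that encode subunits of the mitochondrial respiratory chain were followed through fracture repair in mice. They were taken by name, as the symbols that begin with Nduf, a letter a, b, c, s or v and a digit, the symbols Sdha to Sdhd, and the symbols that begin with Uqcr, Cox4 to Cox8 or Atp5, and 4 names ending in -ps were left out. This gave 84 genes, of which 37 belong by name to complex I, 4 to complex II, 8 to complex III, 18 to complex IV and 17 to complex V, out of 47490 gene names in the femur tables and 46855 in the ulna tables. The rule used names alone, but it was set with earlier results of these data known. By symbol, 83 of the 84 matched the GENCODE M21 annotation of build mm10, on 19 chromosomes, with 8 of them on chromosome 7. Of the 84 genes, 82 were tested, and Cox8c and Cox7b2 were not, because Cox8c was at 0 in the intact limbs and reached at most 0.236 RPKM in a library, and Cox7b2 reached at most 0.184.

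All animals were female mice of strain c57bl/6, aged 12 weeks, with no transgene or drug named in the labels. One set of mice had a full fracture of the femur, a complete break, which is repaired by way of a cartilage callus, and was sampled at 4 h, 1, 3, 7 and 14 d, with 5 libraries at each time. Another set had a stress fracture of the ulna, a partial crack that heals mostly by direct bone formation, and was sampled at 4 h (5 libraries), 1 d (4), 3 d (5), 5 d (5) and 7 d (4). The controls were the intact left limbs of the same bones, 10 femurs and 9 ulnas, so each control limb came from an animal with a fracture elsewhere and no uninjured animal was used. Although the labels say periosteum or callus, the protocol describes a pulverised bone section, 7 mm of femur with the marrow spun out or 5 mm of ulna without that step, and soft tissue was cleaned off both. Bone markers were present in all intact limbs, with summed levels of 8 osteoblast genes from 2739 to 9353 (median 4687) scaled RPKM in femurs and from 533 to 2689 (median 1051) in ulnas, and so were 15 markers of fast skeletal muscle, with sums from 10450 to 36010 (median 23580) in femurs and from 14490 to 22680 (median 19260) in ulnas. In a bulk sample, fewer cells of a type and less RNA per cell cannot be told apart.

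The respiratory chain sits in the inner mitochondrial membrane. Complex I (NADH dehydrogenase) and complex II (succinate dehydrogenase) pass electrons to ubiquinone, complex III (cytochrome bc1) passes them to cytochrome c, and complex IV (cytochrome c oxidase) passes them to oxygen, while complex V (ATP synthase) uses the resulting proton gradient to make ATP. Most subunits are encoded in the nucleus and the remainder in mitochondrial DNA. Several complex IV subunits come in tissue-specific forms: Cox6a2, Cox7a1 and Cox8b are the forms of heart and skeletal muscle, Cox6a1, Cox7a2 and Cox8a are the widely expressed forms, Cox4i2 is an alternative to Cox4i1 known from lung and from low oxygen, and Cox6b2 is known from testis. Ndufa4l2 is a target of hypoxia-inducible factor and a relative of Ndufa4, which is named after complex I but is known as a subunit of complex IV. Cox7a2l takes part in joining complexes into supercomplexes, and Atp5s and Atp5sl match the naming rule without being core subunits of the ATP synthase.

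The results turn on pairs of muscle and widely expressed forms, so the sequences upstream of 5 of these genes are shown. Each is the 250 bases before the RefSeq start of the gene in build GRCm38.p6, read 5′ to 3′ on the gene's strand. Capitals mark a match to the core motif of NRF1, a factor known to act on respiratory chain genes (GCGCATGC), or to the E-box CAGCTG, a motif of muscle regulatory factors. The windows lie at chr7:30183921-30184170 (plus strand) for Cox7a1, chr9:79759854-79760103 (minus) for Cox7a2, chr7:140900447-140900696 (minus) for Cox8b, chr19:7217617-7217866 (minus) for Cox8a and chr5:115348959-115349208 (minus) for Cox6a1.
Cox7a1: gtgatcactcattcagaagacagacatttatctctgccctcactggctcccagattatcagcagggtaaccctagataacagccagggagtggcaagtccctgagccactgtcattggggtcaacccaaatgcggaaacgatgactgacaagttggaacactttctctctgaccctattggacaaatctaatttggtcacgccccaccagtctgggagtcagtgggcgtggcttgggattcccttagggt
Cox7a2: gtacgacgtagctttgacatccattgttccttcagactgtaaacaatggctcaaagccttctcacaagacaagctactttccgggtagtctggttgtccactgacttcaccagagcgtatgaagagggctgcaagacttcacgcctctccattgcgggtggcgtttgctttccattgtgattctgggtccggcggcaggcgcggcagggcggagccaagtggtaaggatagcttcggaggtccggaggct
Cox8b: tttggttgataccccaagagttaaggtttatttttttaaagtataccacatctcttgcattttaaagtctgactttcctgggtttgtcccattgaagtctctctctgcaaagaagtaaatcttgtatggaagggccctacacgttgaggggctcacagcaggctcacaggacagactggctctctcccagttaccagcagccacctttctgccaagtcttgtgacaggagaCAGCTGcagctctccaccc
Cox8a: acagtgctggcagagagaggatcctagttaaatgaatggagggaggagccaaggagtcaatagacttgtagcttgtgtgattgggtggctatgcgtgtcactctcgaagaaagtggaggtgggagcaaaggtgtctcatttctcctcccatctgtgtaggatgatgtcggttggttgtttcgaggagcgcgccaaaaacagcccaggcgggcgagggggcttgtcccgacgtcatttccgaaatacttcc
Cox6a1: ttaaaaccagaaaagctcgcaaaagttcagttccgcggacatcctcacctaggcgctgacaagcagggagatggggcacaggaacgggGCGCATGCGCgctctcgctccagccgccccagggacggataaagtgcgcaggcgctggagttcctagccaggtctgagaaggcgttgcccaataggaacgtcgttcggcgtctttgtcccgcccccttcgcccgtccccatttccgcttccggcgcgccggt
The capitals in Cox6a1 are a pair of overlapping NRF1 core matches from -162 to -153 relative to the start, and those in Cox8b are an E-box from -19 to -14. No letters of the 3 motifs searched, the ETS core CCGGAAGT included, occur in the windows of Cox7a1, Cox7a2 and Cox8a. The windows of the widely expressed forms held more CpG, with 26 in Cox6a1, 14 in Cox7a2 and 11 in Cox8a against 4 in Cox7a1 and 1 in Cox8b, beside a median of 6 over all 27025 gene windows and 14 over the 69 members that have one. On either strand the NRF1 core was found in 8 of 69 member windows (11.6%) against 2.56% of all gene windows, in Atp5g2, Atp5k, Atp5l, Cox6a1, Ndufa11, Ndufa6, Ndufa8 and Sdhb. The ETS core was found in 3 (4.3%) against 3.23%, in Atp5h, Uqcr11 and Uqcrh, and the E-box, which reads the same on both strands, in 6 (8.7%) against 14.7%. These matches describe the letters only.

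Values are reads per kilobase of gene relative to library depth (RPKM), scaled between the libraries of a bone. Comparisons of level between genes are approximate. They depend on the gene lengths used, for which no annotation is named, and on copies of a gene elsewhere in the genome. The depth of each library was inferred from the steps between its low values, which gave from 8.113 to 30.78 M (megareads) assigned to genes per library with a median of 16.44. At that depth the member medians reached 17091 reads per library, and 7 members had a median under 100. Changes are differences in log2(scaled RPKM + 0.1) with the standard error (SE) from limma, and a member is said to rise or fall where its adjusted p over all genes was under 0.05. The replicate numbers are those of the table columns, which are not tied to animals, so p-values measure the spread between libraries. The mean of the members varied between the libraries of a group, although the search for libraries standing apart, given further below, flagged none of these means. In the 5 femur libraries at 4 h, the mean log2 difference of the members from the intact femurs was -0.90, -0.51, -0.81, 0.07 and 0.11: 3 libraries were low, and replicates 4 and 5 were at the intact level. Intact femur replicate 2 was the lowest of its group at -0.53, and femur replicate 2 at 7 d held more muscle-form RNA than the other 4 libraries of that time.

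Averaged over all libraries, the member with the highest scaled RPKM was Ndufb9 in complex I, Sdha in complex II, Uqcr10 in complex III, Cox6a2 in complex IV and Atp5a1 in complex V. In complex IV Cox8b was close behind, with a mean over all libraries of 195 scaled RPKM against 196 for Cox6a2, and in femurs from 3 d on Cox6a1 and Cox8a were more abundant than both. Atp5a1, which encodes the alpha subunit of the catalytic head, ranged from 252 to 533 (median 386) RPKM in intact femurs and from 299 to 457 (median 403) in intact ulnas, each bone on its own scale. Cox6a2, the muscle form of subunit VIa, ranged from 228 to 496 (median 405) in intact femurs. Its level in intact ulnas ranged from 214 to 389 (median 229), and the groups overlap. Ndufb9, an accessory subunit, ranged from 143 to 298 (median 227) in femurs and from 176 to 309 (median 217) in ulnas. Uqcr10 ranged from 101 to 229.8 (median 166) in femurs and from 145 to 217 (median 160.3) in ulnas. Sdha, the flavoprotein that oxidises succinate, was less abundant, at 102 ± 22.7 (SD, n = 10) in femurs and 86.0 ± 10.7 (SD, n = 9) in ulnas.

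With both bones scaled together, 60 of 82 members were lower and 0 higher in intact ulnas than in intact femurs by limma (0 higher also at an unadjusted p under 0.05), beside 21.7% of all tested genes lower and 18% higher. The median difference was -0.41 on the log2 scale against -0.01 over all genes. The lower members were 29 of 37 in complex I, 4 of 4 in II, 5 of 8 in III, 10 of 16 in IV and 12 of 17 in V. Atp5g1, one of the genes that encode the same mature c subunit, had the largest difference, at 5.22 ± 0.822 (SD, n = 10) RPKM in femurs and 1.43 ± 0.365 (SD, n = 9) in ulnas, a difference of -1.82 ± 0.15 SE, adjusted p = 5.29e-15. Ndufb4 (a difference of -1.20, adjusted p = 3.94e-08), Uqcrq (-0.95, adjusted p = 7.32e-07) and Sdhb (-0.57, adjusted p = 0.00117) led complexes I, III and II. In 4 members, Cox4i2, Ndufb2, Atp5g1 and Atp5h, the 2 bones did not overlap, beside 7.22% of all tested genes. With RPKM as deposited the count was 29 lower and 4 higher, and the median difference of all genes then moved to 0.20. Processed copies of Atp5g1 and Ndufb4 in the genome make their values uncertain. In the same contrast 9 of 10 slow-muscle markers were lower in ulnas and 9 of 13 erythroid markers higher, and their part was not tested.

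After full fracture of the femur most respiratory chain genes fell from 1 d on, and furthest at 3 d, while the count at 4 h depended on single libraries. At 4 h, 49 of 82 members fell and 0 rose by limma (2 rose at an unadjusted p under 0.05), beside 28.5% and 28.3% of all genes. At 1 d, 75 fell and 2 rose, beside 24.8% and 26.7%, and at 3 d, 75 fell and 3 rose, beside 28% and 28.8%. At 7 d, 58 fell and 4 rose, beside 33.6% and 32.5%. At 14 d, 60 fell and 3 rose, beside 27% and 28.9%. The change of the median member was -24.8%, -39.1%, -46.9%, -31.9% and -32.3% at the 5 times, while the median log2 change of all genes lay between -0.08 at 7 d and -0.03 at 1 d. These contrasts share the 10 intact femurs. Injured and intact libraries did not overlap for 0 members at 4 h, 21 at 1 d, 54 at 3 d (52 lower, 2 higher), 13 at 7 d and 15 at 14 d, beside 22%, 24%, 32.8%, 39.9% and 31.5% of all tested genes. The share of members was thus above that of all genes at 3 d, close to it at 1 d and below it at the other times. The count of members called at 4 h was 16 without 4 h replicate 1 and 18 without 4 h replicate 3, and 27 with only the compared groups in the fit against 75 with upper-quartile scaling.

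**Figure D1:**
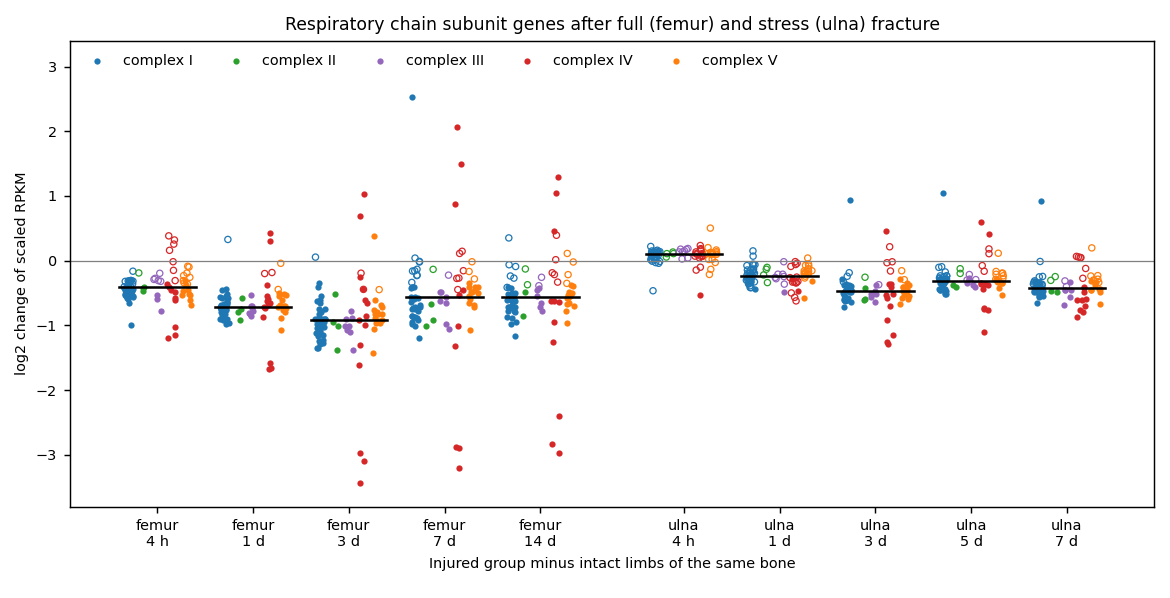
Log2 change in scaled RPKM of each of the 82 tested members (y axis) in each injured group against the intact limbs of the same bone (x axis). Colours are the complexes, filled points have an adjusted p under 0.05, hollow points do not, and the black line is the median of the 82 members. In the femur the line is lowest at 3 d (-0.91), and in the ulna at 3 d (-0.47).

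All 5 complexes took part at 3 d. In complex I 36 of 37 members fell with a median log2 change of -0.94, in complex II 4 of 4 (-0.98), in complex III 8 of 8 (-1.01), in complex IV 12 of 16 (-0.75) and in complex V 15 of 17 (-0.82). Sdhb, the iron-sulfur subunit of complex II, ranged from 56.5 to 116 (median 90.7) RPKM in intact femurs and was 33.2, 32.3, 34.3, 39.9 and 31.5 in the 5 libraries at 3 d. All of the latter were below all intact values, and the log2 change was -1.39 ± 0.19 SE, adjusted p = 2.47e-07. Uqcrfs1, the Rieske iron-sulfur protein of complex III, ranged from 71.3 to 147 (median 116) in intact femurs and was 43.1, 40.1, 40.4, 51.8 and 41.8 at 3 d. These values too lay below every intact femur (-1.38 ± 0.19 SE, adjusted p = 2.72e-07). Ndufb9 had the largest fall in complex I, from 222 ± 41.2 (SD, n = 10) to 85.8 ± 10.3 (SD, n = 5), with no overlap (-1.35 ± 0.21 SE, adjusted p = 1.23e-06). Atp5g1 fell most in complex V, from 4.87 ± 0.776 (SD, n = 10) to 1.74 ± 0.225 (SD, n = 5) (-1.43 ± 0.20 SE, adjusted p = 2.28e-07). The abundant Atp5a1 was 199, 199.7, 212, 277 and 224 at 3 d, and 1 of the 5 libraries lay inside the intact range (-0.82 ± 0.16 SE, adjusted p = 6.06e-05). The members at 3 d that neither rose nor fell by the test were Atp5l, Cox4i2, Cox7a2l and Ndufa4l2.

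At 4 h the low values stood in replicates 1 to 3. Ndufb9 was 84.7, 145, 101, 229 and 255 RPKM in replicates 1 to 5, of which replicates 1 and 3 lie below every intact femur and the other 3 inside the intact range. In complex III Uqcr11 fell most (-0.78 ± 0.19 SE, adjusted p = 0.000630), in complex V Atp5k, the e subunit (-0.69 ± 0.20 SE, adjusted p = 0.00369), and in complex I Ndufa4l2, from 9.97 ± 1.70 (SD, n = 10) to 5.69 ± 3.71 (SD, n = 5) (adjusted p = 0.000582). In complex II Sdhb fell most (-0.47 ± 0.19 SE, adjusted p = 0.0357), but not without 4 h replicate 1 (adjusted p = 0.197) or replicate 3 (adjusted p = 0.203). In the same 4 h libraries 8 of 10 neutrophil markers rose and 0 fell, and their mean log2 difference from the intact femurs was 1.95, 1.38, 1.79, 0.51 and 1.16 in replicates 1 to 5. Their summed level ranged from 4932 to 15930 (median 9779) RPKM at 4 h against 2139 to 4438 (median 3599) in intact femurs, with no marker at 0. At 3 d 7 of the 10 fell and 0 rose, and at 7 and 14 d 9 and 10 fell. In 4 h replicates 1 to 5 the mean log2 difference of 15 fast-muscle markers was -1.98, -0.25, -0.77, 0.48 and 0.82. From lowest to highest, the libraries stood in the same order as for the mean of the members. The mean of 13 erythroid markers was 1.72, 1.46, 1.52, 0.78 and 1.198. The part of neutrophils, muscle and erythroid cells was not tested. At 1 d the largest falls outside complex IV were in Atp5g1 (-1.06 ± 0.20 SE, adjusted p = 3.58e-05), Ndufs7, an iron-sulfur core subunit of complex I (-0.98 ± 0.18 SE, adjusted p = 3.32e-05), Sdhb (-0.92 ± 0.19 SE, adjusted p = 0.000169) and Uqcrfs1 (-0.85 ± 0.19 SE, adjusted p = 0.000392). At 7 d they were in Ndufs7 (-1.20 ± 0.18 SE, adjusted p = 7.16e-07), Atp5g1 (-1.07 ± 0.20 SE, adjusted p = 1.69e-05), Uqcrfs1 (-1.06 ± 0.19 SE, adjusted p = 1.28e-05) and Sdhb (-1.01 ± 0.19 SE, adjusted p = 3.00e-05). At 14 d they were in Ndufa5 (-1.16 ± 0.19 SE, adjusted p = 4.56e-06), Atp5g1 (-0.96 ± 0.20 SE, adjusted p = 0.000109), Sdhb (-0.85 ± 0.19 SE, adjusted p = 0.000345) and Uqcrc1, a core protein of complex III (-0.78 ± 0.16 SE, adjusted p = 0.000105).

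Compared directly, 14 members were higher at 14 d than at 3 d after full fracture and 0 were lower by limma (0 also at an unadjusted p under 0.05, where 30 were higher), beside 16.7% and 15.5% of all genes. The share of members that were higher was thus close to that of all genes. The median log2 change was 0.36 in the members and 0.01 over all genes. This contrast has no intact library in it. The 14 were spread over the complexes, with 4 in I, 2 in II, 3 in III, 4 in IV and 1 in V. Cox7a2l was 27.6, 29.1, 28.1, 28.5 and 26.9 RPKM at 3 d and 37.5, 51.7, 49.7, 50.0 and 33.8 at 14 d, with no overlap (0.65 ± 0.11 SE, adjusted p = 3.75e-05). At 14 d it had also risen over the intact femurs, which ranged from 26.3 to 39.9 (median 31.7), although the groups overlap (0.45 ± 0.10 SE, adjusted p = 0.000202). Among all members the largest log2 change was 1.04, in Cox7a1, a muscle form of complex IV. Its values at both times are given below. The largest called changes in the other complexes were in Uqcrc2 (0.68, adjusted p = 0.0113), Ndufa1 (0.69, adjusted p = 0.0121), Sdhc (0.58, adjusted p = 0.0223) and Atp5h (0.38, adjusted p = 0.0220). Without 14 d replicate 2 the count was 3, and of these 4 the call of Uqcrc2 was kept, while with only the compared groups in the fit the count was 43. In the same libraries the summed level of 8 osteoclast markers ranged from 5221 to 6544 RPKM at 14 d against 303.8 to 606.3 at 3 d. That of 8 osteoblast markers ranged from 13020 to 16200 against 6203 to 7735. The sum of 11 macrophage markers was lower, from 760.9 to 976.7 against 1459 to 2095. The part of these cells was not tested.

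The largest falls among the 82 members at each of the 5 times after full fracture were in the complex IV subunits that have a muscle form. Cox7a1, the muscle form of subunit VIIa, ranged from 80.8 to 197 (median 140.2) RPKM in intact femurs. It was 38.3, 69.5, 35.2, 113 and 124 at 4 h, 56.1, 28.2, 58.8, 38.5 and 52.8 at 1 d and 13.9, 10.4, 12.1, 13.4 and 12.6 at 3 d. The groups overlap at 4 h and separate at 1 d, and the 5 libraries at 3 d lie within a narrow range far below the intact femurs. The fall was 10.9-fold at 3 d, with a log2 change of -3.44 ± 0.34 SE, adjusted p = 2.99e-10. At 7 d the values were 8.73, 66.1, 24.3, 6.67 and 22.2 and at 14 d 26.5, 35.1, 21.2, 23.8 and 23.9, again with no overlap with the intact femurs (-2.88 ± 0.34 SE, adjusted p = 6.20e-09, and -2.40 ± 0.34 SE, adjusted p = 3.41e-07). One library at 7 d, replicate 2, was well above the other 4.

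Cox7a2, the widely expressed form of the same subunit, ranged from 41.9 to 71.2 (median 54.3) in intact femurs and was 43.5, 44.7, 41.6, 43.1 and 32.5 at 3 d and 55.6, 69.7, 69.7, 47.1 and 61.0 at 7 d. The injured femurs overlap the intact ones at every time, with a fall at 3 d (-0.44 ± 0.14 SE, adjusted p = 0.00956) and a log2 change of 0.11 ± 0.14 SE, adjusted p = 0.507 at 7 d. Per library, the RPKM ratio of Cox7a1 to Cox7a2 was on average 2.45 in intact femurs, 0.306 at 3 d and 0.459 at 14 d. The ratio went from an excess of the muscle form to an excess of the widely expressed form, and its range at 1, 3, 7 and 14 d did not overlap that of the intact femurs.

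Cox8a and Cox6a1, the widely expressed forms of subunits VIII and VIa, rose while their muscle partners fell. Cox8b, the muscle form, ranged from 230.4 to 445 (median 406) in intact femurs and was 47.4, 35.7, 55.3, 59.6 and 46.6 at 3 d and 58.5, 71.2, 41.8, 49.8 and 49.7 at 14 d. Every library at these times lay below every intact femur (-2.98 ± 0.33 SE, adjusted p = 3.18e-09, and -2.83 ± 0.33 SE, adjusted p = 9.60e-09). Cox8a ranged from 86.3 to 128 (median 116) in intact femurs and was 164, 198, 164, 189 and 168 at 3 d and 197, 278, 265, 239 and 172 at 14 d. All of these lay above every intact femur, and the rise was 1.61-fold at 3 d (0.69 ± 0.13 SE, adjusted p = 1.95e-05) and 2.07-fold at 14 d (1.05 ± 0.13 SE, adjusted p = 1.61e-08). The mean ratio of Cox8b to Cox8a was 3.48 in intact femurs, 0.275 at 3 d and 0.236 at 14 d.

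Cox6a2 was 109, 76.1, 190.0, 132 and 145 RPKM at 1 d, 53.1, 31.6, 49.0, 62.0 and 40.5 at 3 d, 17.6, 134, 57.4, 15.1 and 68.2 at 7 d and 56.9, 61.7, 36.0, 47.0 and 53.0 at 14 d. All 4 groups lay below the lowest intact femur, at 228. Its log2 change was -1.20 ± 0.36 SE, adjusted p = 0.00530 at 4 h, where the groups overlap, -3.10 ± 0.36 SE, adjusted p = 9.98e-09 at 3 d and -3.21 ± 0.36 SE, adjusted p = 2.83e-09 at 7 d. Cox6a1 ranged from 62.8 to 108 (median 78.5) in intact femurs and was 153, 184, 158, 167 and 139 at 3 d, 221, 219, 232, 198 and 238 at 7 d and 154, 236, 241, 208 and 146 at 14 d. Each of these values was above every intact femur, and the rise was 2.04-fold, 2.82-fold and 2.46-fold (1.02 ± 0.15 SE, adjusted p = 6.74e-07, 1.50 ± 0.15 SE, adjusted p = 2.57e-10, and 1.30 ± 0.15 SE, adjusted p = 9.65e-09). The ratio of Cox6a2 to Cox6a1 was on average 5.05 in intact femurs and 0.193 at 7 d. Smaller rises of Cox6a1 and Cox8a were already called at 1 d (0.43, adjusted p = 0.0166, and 0.30, adjusted p = 0.0437). The first was lost without 1 d replicate 1 (adjusted p = 0.0695) and the second without any of 8 single libraries, and both were lost with upper-quartile scaling (adjusted p = 0.103 and 0.265).

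**Figure D2:**
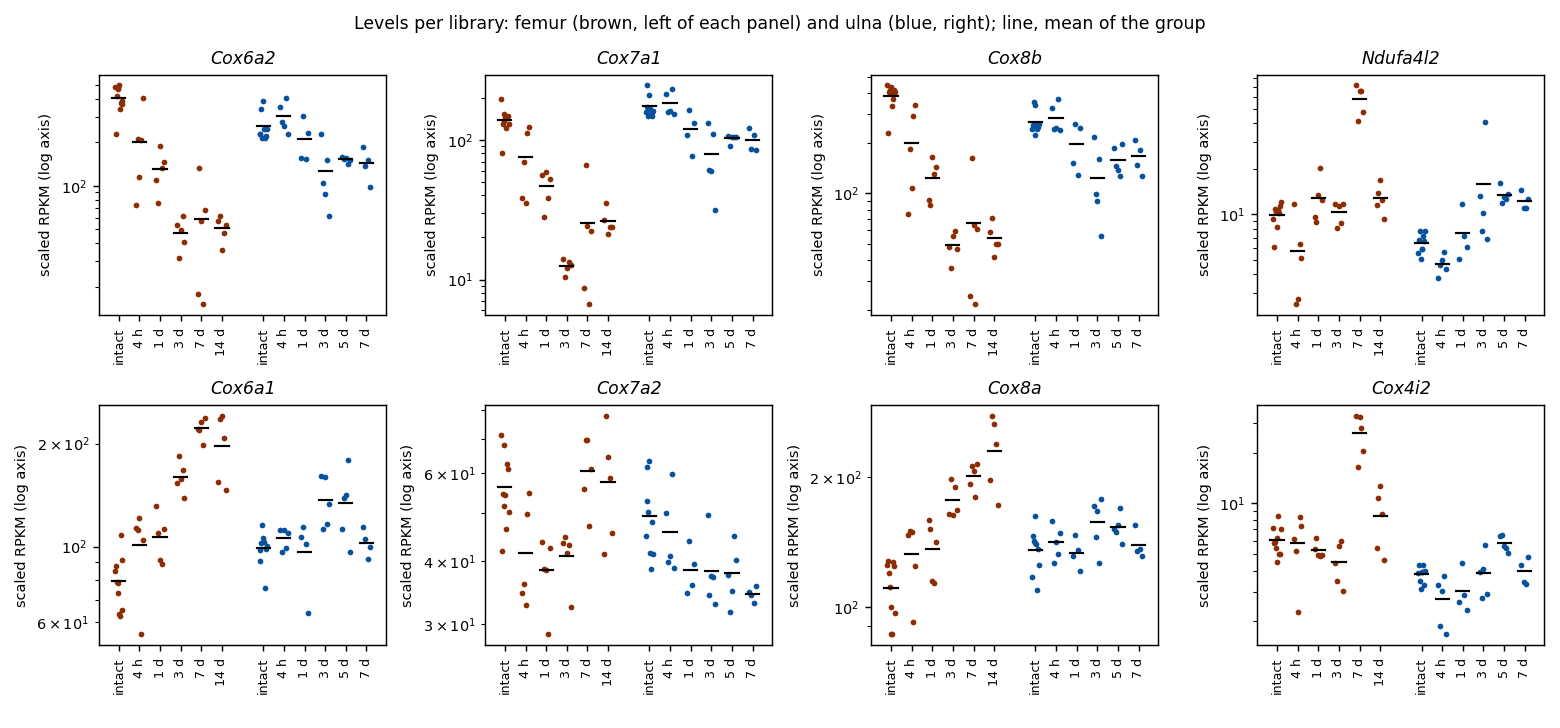
Scaled RPKM (y axis, logarithmic) of 8 members in each group (x axis), with 1 point per library, a line for the mean, femurs in brown and ulnas in blue. The muscle forms Cox6a2, Cox7a1 and Cox8b fall below the intact femurs from 1 d on, Cox6a1 and Cox8a rise above them from 3 d on, and Ndufa4l2 and Cox4i2 peak in the femur at 7 d.

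**Figure D3:**
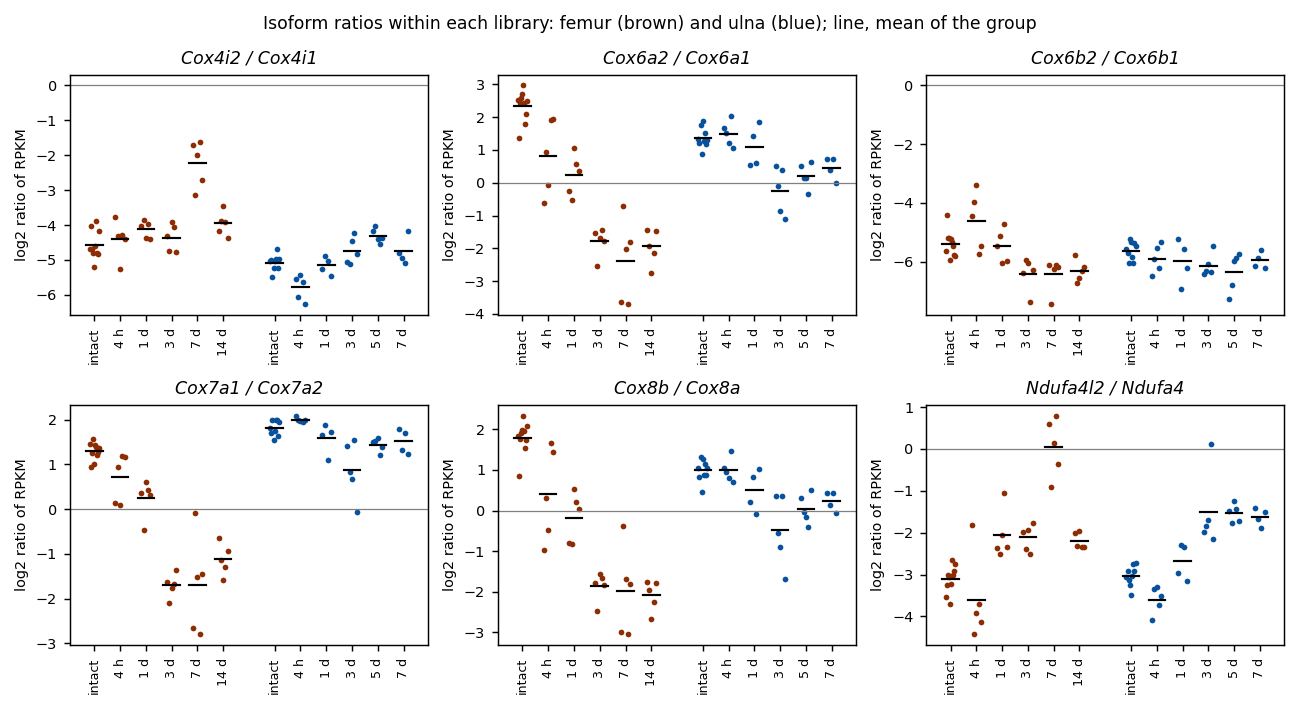
Log2 ratio of RPKM (each + 0.1) between the forms of 6 pairs (y axis) per library and group (x axis), with a line for the mean. A ratio within a library does not depend on scaling, and the ratios Cox6a2/Cox6a1, Cox7a1/Cox7a2 and Cox8b/Cox8a of the femur libraries from 1 d on do not overlap those of intact femurs.

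The muscle markers moved with these forms. Of 15 fast-muscle markers 1 fell at 4 h, 13 at 1 d and 15 at each of 3, 7 and 14 d, and 0 rose at any time, with median log2 changes of -2.40, -2.57 and -2.19 at the last 3 times. Their summed level was from 2812 to 7019 (median 5173) RPKM at 3 d, with every library below every intact femur and no marker at 0. At 4 h their mean log2 difference from the intact femurs ranged from -1.98 in replicate 1 to 0.82 in replicate 5. Of 10 slow-muscle markers 9 fell at 4 h and 10 at 3 d. Femur replicate 2 at 7 d, the highest for Cox6a2, Cox7a1 and Cox8b, also had the highest fast-muscle score of its time. With those 3 genes left out, the mean log2 difference of the 79 other members from the intact femurs was -0.82, -0.84, -0.84, -0.70 and -0.94 in the libraries at 3 d, all below the lowest intact femur at -0.52. Fat markers moved too. Of 10 adipocyte markers 6 fell at 4 h and all 10 at 1, 3, 7 and 14 d, with a median log2 change of -2.94 at 3 d, and their summed level ranged from 22.9 to 93.0 (median 32.6) RPKM at 3 d against 132 to 339.7 (median 278) in intact femurs, with no marker at 0. Of 5 brown adipocyte markers 2 could be tested, and both fell at 1, 3, 7 and 14 d. Ppargc1a was 1 of the 2. It is also counted among the 15 regulators of mitochondrial genes given further below, so its fall does not stand for brown fat alone. The sum of the 5 ranged from 0.529 to 0.974 (median 0.708) at 3 d, with Ucp1, the uncoupling protein of brown fat, at 0 in every library, against 3.71 to 9.24 (median 5.65) in intact femurs. How much of either fall goes with the muscle or fat content of the section was not tested.

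Ndufa4l2 and Cox4i2, both known from low oxygen, were the members with the largest rises, and these came at 7 d. Ndufa4l2 ranged from 6.11 to 12.1 (median 10.4) RPKM in intact femurs and was 71.4, 41.3, 65.3, 65.6 and 47.3 at 7 d. The 5 libraries lay far above all intact femurs, and the rise was 5.75-fold (2.52 ± 0.24 SE, adjusted p = 5.92e-11). At 3 d it was 11.7, 8.10, 11.3, 8.78 and 11.8 and at 14 d 11.5, 13.8, 16.9, 12.4 and 9.32, and both groups overlap the intact femurs with changes of 0.06 ± 0.24 SE, adjusted p = 0.863, and 0.35 ± 0.24 SE, adjusted p = 0.212. Its relative Ndufa4 was 47.5, 78.1, 58.8, 37.8 and 60.3 at 7 d against 58.7 to 110.2 (median 86.4) in intact femurs, a fall with overlapping groups (-0.64 ± 0.17 SE, adjusted p = 0.00167). The RPKM ratio of Ndufa4l2 to Ndufa4 was on average 0.116 in intact femurs, 1.04 at 7 d and 0.220 at 14 d.

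Cox4i2 ranged from 4.51 to 8.45 (median 5.87) in intact femurs and was 33.1, 16.5, 32.3, 28.1 and 20.4 at 7 d. Every library at 7 d was above every intact femur, a rise of 4.17-fold (2.06 ± 0.24 SE, adjusted p = 4.40e-09). At 14 d it was 5.41, 10.8, 12.8, 8.70 and 4.62, overlapping the intact femurs (0.39 ± 0.24 SE, adjusted p = 0.161). Cox4i1, the common form, was 109, 146, 129, 86.6 and 133 at 7 d against 96.0 to 189 (median 148) in intact femurs, with no call (-0.27 ± 0.15 SE, adjusted p = 0.124). Cox4i2 stayed the rarer form, since its ratio to Cox4i1 was from 0.113 to 0.324 in the 7 d libraries and from 0.0268 to 0.0671 in intact femurs. Both of these genes are also known from pericytes and smooth muscle, and the summed level of 8 markers of those cells ranged from 409.7 to 676 (median 505) at 7 d against 194 to 355 (median 256) in intact femurs, with no marker at 0. Of the 8 markers 3 rose and 2 fell at 7 d, and of 15 glycolysis and hypoxia genes 5 rose and 3 fell. Of all genes 32.5% rose and 33.6% fell at that time, so the rising shares of both lists were close to that of all genes. Of 9 tested chondrocyte markers 5 rose at 3 d and all 9 at 7 and 14 d, with median log2 changes of 6.80 at 7 d and 3.64 at 14 d. Their summed level ranged from 4815 to 10710 (median 8878) RPKM at 7 d and from 871 to 2138 (median 1557) at 14 d against 208 to 503 (median 317) in intact femurs, with no marker at 0. The part of these cells and genes in the rises was not tested.

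Among the remaining pairs, Cox6b2, known from testis, was low, at 2.57 to 4.94 (median 3.80) RPKM in intact femurs and 1.12, 1.62, 1.45, 0.634 and 1.21 at 3 d. The groups did not overlap at 3 d (-1.61 ± 0.22 SE, adjusted p = 1.62e-07). Cox6b1 was the abundant form at 101, 104, 102, 121 and 101 at 3 d against 100.2 to 208 (median 169.5) in intact femurs (-0.61 ± 0.17 SE, adjusted p = 0.00212). Of the genes for the c subunit, Atp5g2 alone in complex V rose at 3 d, from 1.06 ± 0.283 (SD, n = 10) to 1.38 ± 0.118 (SD, n = 5) (0.39 ± 0.17 SE, adjusted p = 0.0464), with overlapping groups. This call was lost when any of several single libraries was left out (adjusted p up to 0.168), while the fall of Atp5g1 was not. Copies of these genes elsewhere in the genome make their levels uncertain.

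After stress fracture of the ulna most members fell from 3 d on, with medians nearer to 0 than in the femur. At 4 h, 1 of 82 fell and 0 rose by limma (1 rose at an unadjusted p under 0.05), beside 5.19% and 5.51% of all genes, and the median change was 0.10. The 1 that fell, Cox4i2, was 3.29, 1.87, 3.02, 3.71 and 1.68 RPKM against 3.12 to 4.32 (median 3.92) in intact ulnas (-0.53 ± 0.17 SE, adjusted p = 0.0454), and the call was lost without intact replicate 1, 2, 4, 6, 7, 8 or 10, or 4 h replicate 2 or 5. At 1 d, 7 fell and 0 rose by limma (31 and 0 at an unadjusted p under 0.05), beside 3.98% and 8.83%. Those 7 were Atp5k, Atp5sl, Cox5b, Cox7a2l, Ndufa6, Ndufv3 and Uqcr11, named because they are few, with changes from -0.58 in Atp5k to -0.28 in Cox7a2l. The count at 1 d was 4 without intact replicate 6, 1 without 1 d replicate 1, 13 without replicate 2, 0 without replicate 4 and 2 without replicate 5.

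At 3 d, 69 of 82 members fell and 2 rose in the ulna, beside 17.6% and 20.2% of all genes. At 5 d, 43 fell and 3 rose, beside 20.9% and 22.3%, and at 7 d, 54 fell and 1 rose, beside 16% and 18.5%. The change of the median member was -27.6%, -19.4% and -25.5%, and these contrasts share the 9 intact ulnas. Injured and intact ulnas did not overlap for 4 members at 3 d, 17 at 5 d and 29 at 7 d, beside 17.1%, 21.7% and 18.4% of all tested genes, so that the share of members was below that of all genes at 3 d, close to it at 5 d and above it at 7 d. At 5 and 7 d all 10 neutrophil markers fell in the ulna, and their part was not tested. At 3 d, 33 of 37 members fell in complex I, 3 of 4 in II, 7 of 8 in III, 11 of 16 in IV and 15 of 17 in V, with complex medians between -0.52 in III and -0.43 in V. Sdhb was 61.5, 42.3, 42.1, 50.8 and 33.4 RPKM at 3 d against 51.5 to 86.7 (median 68.2) in intact ulnas, with overlapping groups (-0.61 ± 0.15 SE, adjusted p = 0.00165). Uqcrfs1 also fell (-0.64 ± 0.15 SE, adjusted p = 0.00121), as did Ndufb9 (-0.72 ± 0.16 SE, adjusted p = 0.000593). At 5 d the largest falls by complex were in Cox6b2 (-1.11 ± 0.23 SE, adjusted p = 0.000239), Atp5k (-0.54 ± 0.16 SE, adjusted p = 0.00718) and Ndufs5 (-0.52 ± 0.11 SE, adjusted p = 0.000348). At 7 d they were in Cox6a2 (-0.86 ± 0.24 SE, adjusted p = 0.00612), Uqcr11 (-0.69 ± 0.15 SE, adjusted p = 0.000534), Atp5k (-0.66 ± 0.17 SE, adjusted p = 0.00319) and Ndufb9 (-0.65 ± 0.17 SE, adjusted p = 0.00385). The count at 5 d was 74 with RPKM as deposited, 29 without intact replicate 4, 30 without intact replicate 6, 27 without 5 d replicate 2 and 29 without 5 d replicate 3. The count at 7 d was 25 without 7 d replicate 5.

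Between 3 and 7 d after stress fracture, 1 member rose and 0 fell by limma (2 and 1 at an unadjusted p under 0.05), beside 2.31% and 5.13% of all genes. It was Ndufb2 (0.42 ± 0.12 SE, adjusted p = 0.0242), and the count was 0 without 3 d replicate 2, 3 or 5 or 7 d replicate 4 or 5 and 2 without 3 d replicate 1.

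The muscle forms fell in the ulna as well. Cox7a1 was 133, 61.2, 59.8, 109 and 31.6 RPKM at 3 d and 107, 91.1, 105, 104 and 105 at 5 d against 148 to 245 (median 161) in intact ulnas. No library of either time reached the intact range (-1.29 ± 0.22 SE, adjusted p = 2.67e-05, and -0.74 ± 0.22 SE, adjusted p = 0.00691). Cox8b was 218, 99.0, 90.1, 161 and 55.3 at 3 d against 223 to 355 (median 257), with no overlap (-1.26 ± 0.22 SE, adjusted p = 5.06e-05), and at 7 d its fall (-0.70 ± 0.24 SE, adjusted p = 0.0246) was lost without 7 d replicate 2 (adjusted p = 0.0729) or replicate 5 (adjusted p = 0.112). Cox6a2 was 227, 104, 88.0, 152 and 61.7 at 3 d against 214 to 389 (median 229), and 1 library overlapped (-1.15 ± 0.22 SE, adjusted p = 0.000160). Cox6a1 was 161, 112, 159.6, 116 and 133 at 3 d against 75.4 to 116 (median 100.5), a rise with overlapping groups (0.46 ± 0.13 SE, adjusted p = 0.00657). At 5 d its rise (0.41 ± 0.13 SE, adjusted p = 0.0120) was lost without 5 d replicate 4 (adjusted p = 0.0747) and with RPKM as deposited (adjusted p = 0.128). Cox8a changed by 0.21 ± 0.09 SE, adjusted p = 0.0560 at 3 d, and Cox7a2 by -0.35 ± 0.12 SE, adjusted p = 0.0185. The mean ratio of Cox6a2 to Cox6a1 was 2.58 in intact ulnas, 0.847 at 3 d and 1.36 at 7 d, and that of Cox8b to Cox8a was 1.98, 0.715 and 1.18. In the 3 d libraries these ratios ranged from 0.464 to 1.41 and from 0.311 to 1.28. The mean ratio of Cox7a1 to Cox7a2 stayed above 1, at 3.53, 1.85 and 2.86, and at 5 and 7 d its range overlapped that of intact ulnas. Beside these, 15 of 15 fast-muscle markers fell at 3 d, 12 at 5 d and 5 at 7 d. At 3 d 7 of 10 adipocyte markers and both brown adipocyte markers tested fell as well. The part of muscle and fat was not tested.

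Ndufa4l2 was the member that rose at each of 3, 5 and 7 d in the ulna. It ranged from 5.05 to 7.77 (median 6.62) RPKM in intact ulnas and was 13.3, 7.79, 10.2, 40.9 and 6.88 at 3 d, 16.1, 11.9, 13.0, 12.6 and 13.6 at 5 d and 14.6, 11.1, 10.9 and 12.6 at 7 d. At 5 and 7 d every library was above every intact ulna, while at 3 d 1 of the 5 libraries stood far above the others and the groups overlap. Changes were 0.94 ± 0.25 SE, adjusted p = 0.00342 at 3 d, 1.04 ± 0.25 SE, adjusted p = 0.00111 at 5 d and 0.92 ± 0.27 SE, adjusted p = 0.00867 at 7 d, and none of these calls was lost when any single library was left out. Without the high library at 3 d, replicate 4, the change was 0.52, with an adjusted p under the threshold. Cox4i2 was 6.44, 6.53, 5.58, 5.45 and 5.08 at 5 d, above every intact ulna (0.60 ± 0.17 SE, adjusted p = 0.00511), and 4.29, 3.42, 3.31 and 4.82 at 7 d, where the groups overlap (0.05 ± 0.18 SE, adjusted p = 0.869). The pericyte and smooth muscle markers, of which 5 of 8 rose and 0 fell at 5 d, had a summed level from 320.1 to 378 (median 372) against 191 to 296 (median 263) in intact ulnas, and 1 of 15 glycolysis and hypoxia genes rose and 7 fell at 5 d. Of all genes 22.3% rose and 20.9% fell at that time. Of the 9 chondrocyte markers 6 rose at 3 d and all 9 at 5 and 7 d, with a median log2 change of 5.29 at 5 d and a summed level from 951 to 2427 (median 1401) against 84.0 to 202 (median 109.8) in intact ulnas. Their part in the rises was not tested.

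Whether the 2 injuries differed was tested as the change after full fracture minus the change after stress fracture at the same time. At 4 h the change was more negative after full fracture for 35 of 82 members and more positive for 0 by limma (57 and 0 at an unadjusted p under 0.05), beside 18.2% and 17.8% of all genes. At 1 d it was more negative for 19 and more positive for 0 by limma (45 and 1 at an unadjusted p under 0.05), beside 13.4% and 13.8%. At 3 d it was more negative for 24 and more positive for 2, beside 13.6% and 12.7%, and at 7 d more negative for 10 and more positive for 5, beside 23.5% and 23.5%. At 7 d the members' share was thus below that of all genes, and their median difference (-0.11) was close to that of all genes (-0.10). With RPKM as deposited the split was 12 and 3 at 3 d and 19 and 5 at 7 d, and with upper-quartile scaling 21 and 4 at 7 d. The femur and the ulna differ in bone, injury and marrow removal together, and these cannot be told apart.

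Single libraries moved these counts. At 4 h the count was 7 without femur 4 h replicate 1, 9 without replicate 3, 65 without replicate 4 and 57 without replicate 5, 55 without intact femur replicate 2, 22 without ulna 4 h replicate 1 and 12 without replicate 4. At 1 d it was 41 without intact femur replicate 2, 6 without ulna 1 d replicate 2 or 5 and 36 without ulna 1 d replicate 4. At 3 d it was 41 without intact femur replicate 2, 16 or 17 without intact femur replicate 1 or 5, 16 or 17 without intact ulna replicate 1 or 5, from 15 to 16 without femur 3 d replicate 1, 2 or 5, 7 without ulna 3 d replicate 1 and 13 without ulna 3 d replicate 4.

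The isoform genes carried the largest differences between injuries. At 3 d the difference was -2.15 ± 0.42 SE, adjusted p = 8.92e-05 for Cox7a1, -1.95 ± 0.44 SE, adjusted p = 0.000631 for Cox6a2 and -1.72 ± 0.41 SE, adjusted p = 0.00116 for Cox8b. At 7 d it was -2.09 ± 0.43 SE, adjusted p = 6.54e-05 for Cox7a1, -2.35 ± 0.46 SE, adjusted p = 2.46e-05 for Cox6a2 and -2.20 ± 0.43 SE, adjusted p = 2.16e-05 for Cox8b. In each of the 3 genes the fall after full fracture was thus the larger one at both times. Cox6a1 and Cox8a rose more after full fracture at 7 d (1.44 ± 0.21 SE, adjusted p = 8.60e-08, and 0.83 ± 0.16 SE, adjusted p = 1.79e-05). At 3 d their differences (0.57, adjusted p = 0.0286, and 0.48, adjusted p = 0.0158) were lost without ulna 3 d replicate 4 (adjusted p = 0.0671 and 0.0576) and with upper-quartile scaling (adjusted p = 0.0879 and 0.0744), and that of Cox6a1 also without femur 3 d replicate 2 (adjusted p = 0.0642) or ulna 3 d replicate 2 (adjusted p = 0.0713). Cox7a2 differed at 7 d (0.60 ± 0.20 SE, adjusted p = 0.00978), but not with upper-quartile scaling (adjusted p = 0.0897). Cox4i2 (2.01 ± 0.31 SE, adjusted p = 3.72e-07) and Ndufa4l2 (1.61 ± 0.37 SE, adjusted p = 0.000228) rose more after full fracture at 7 d. For Ndufa4l2 the difference at 3 d was -0.88 ± 0.35 SE, adjusted p = 0.0549, with the higher change after stress fracture, and was not called. Outside complex IV, Atp5g1 fell more after full fracture at 1 d (-1.001 ± 0.27 SE, adjusted p = 0.00410), 3 d (-0.83 ± 0.26 SE, adjusted p = 0.0127) and 7 d (-0.84 ± 0.27 SE, adjusted p = 0.00854), and Uqcr11 at 4 h (-0.82 ± 0.24 SE, adjusted p = 0.00484). Sdhb (-0.77, adjusted p = 0.0160), Uqcrfs1 (-0.73, adjusted p = 0.0240) and Ndufs7 (-0.73, adjusted p = 0.0180) differed at 3 d, but not without ulna 3 d replicate 1 (adjusted p = 0.0539, adjusted p = 0.0736 and adjusted p = 0.0700). The fast-muscle markers differed in the same direction, 8 of 15 at 3 d and 15 of 15 at 7 d, and their part was not tested.

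**Figure D4:**
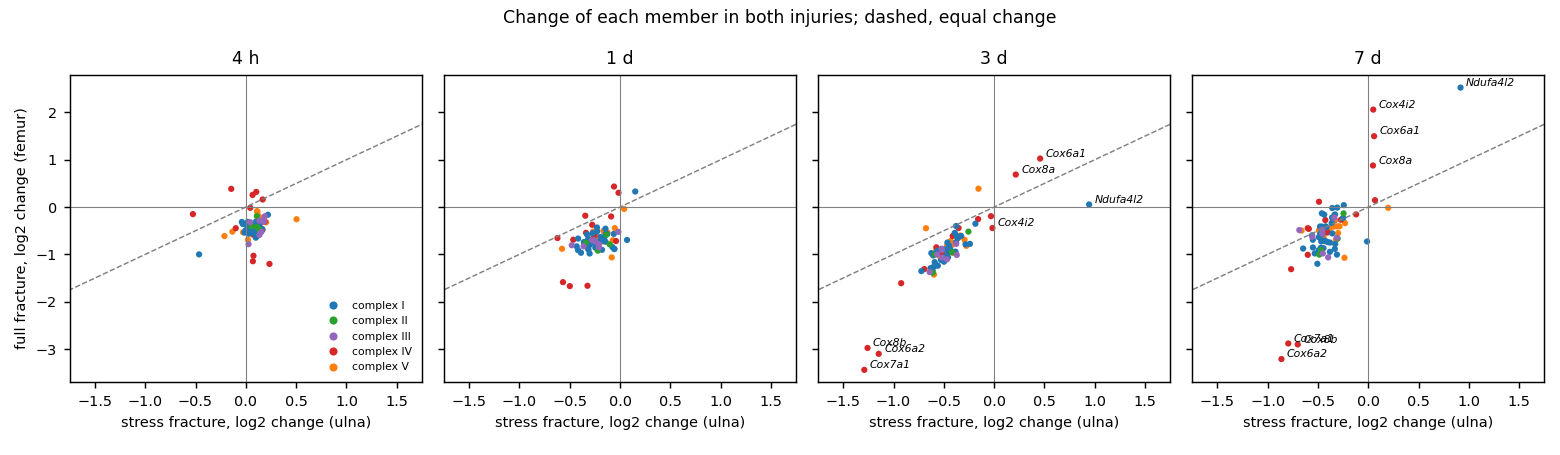
Log2 change of each member after full fracture of the femur (y axis) against its change after stress fracture of the ulna (x axis) at 4 h, 1 d, 3 d and 7 d, with a dashed line for equal change and colours for the complexes. Most members lie below the dashed line at 4 h, 1 d and 3 d, and Ndufa4l2 and Cox4i2 lie above it at 7 d.

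The mitochondrially encoded subunits fell from 3 d on after full fracture. Of the 13 genes 7 could be tested, while mt-Nd3, mt-Nd4l, mt-Co2, mt-Atp6 and mt-Atp8 were listed at 0 in every group and mt-Co3 at or near 0. After full fracture 1 of the 7 rose at 4 h and 0 fell by limma (1 and 0 at an unadjusted p under 0.05), 0 were called at 1 d (0 also at an unadjusted p under 0.05), and all 7 fell at 3 d (median log2 change -1.63), 7 d (-2.14) and 14 d (-1.70). The gene mt-Co1, which encodes the catalytic core of complex IV, ranged from 4642 to 8696 (median 7039) RPKM in intact femurs and was 7237, 7575, 6851, 11180 and 12140 at 4 h, 2360, 1717, 2309, 2268 and 2185 at 3 d and 1423, 2421, 1778, 1856 and 1789 at 7 d. At 3 and 7 d no library overlapped the intact femurs, with changes of -1.58 ± 0.19 SE, adjusted p = 1.20e-08 for mt-Co1 at 3 d and -1.82 ± 0.19 SE, adjusted p = 3.79e-10 at 7 d. At 1 d, 75 nuclear members had fallen and 0 mitochondrially encoded ones, a difference that was not tested. At 7 d the nuclear median was -0.55 and the mitochondrially encoded one -2.14.

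After stress fracture all 7 mitochondrially encoded genes fell at 3 d (-0.63), 6 at 5 d (-0.51) and 0 at 4 h, 1 d and 7 d by limma. At those 3 times 0 fell also at an unadjusted p under 0.05, at which 4 were higher at 4 h, and the 7 d median was -0.29. Their change was more negative after full fracture for 7 of 7 at 3 d (median -1.07) and 7 of 7 at 7 d (-1.88). Copies of mitochondrial DNA in the nuclear genome can share short reads with these genes, so their values are uncertain.

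**Figure D5:**
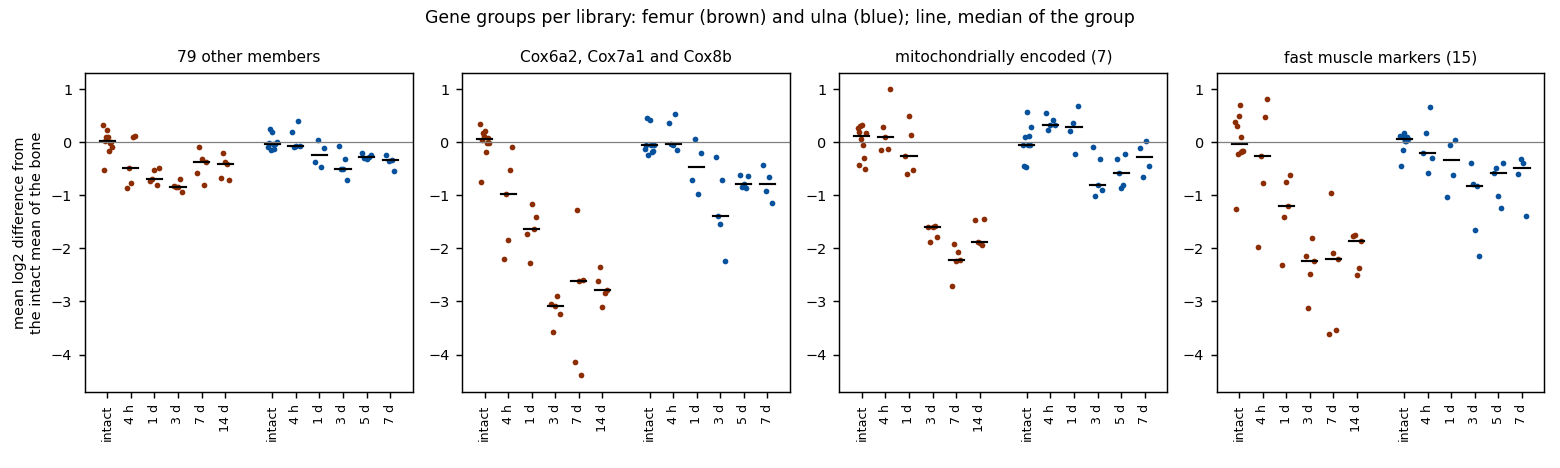
Mean log2 difference from intact limbs, taken within each bone (y axis), for 79 members other than Cox6a2, Cox7a1 and Cox8b, for those 3 genes, for 7 mitochondrially encoded subunits and for 15 fast-muscle markers, with 1 point per library in each group (x axis) and a line for the median. The 79 members reach -0.84 in the femur at 3 d and the mitochondrially encoded subunits -2.23 at 7 d.

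Genes that feed or build the chain were read from the same tests. Of 13 citric acid cycle genes, 0 rose and 12 fell at 1 d, 12 at 3 d, 13 at 7 d and 12 at 14 d after full fracture, with medians from -0.87 at 7 d to -0.63 at 1 d. At 4 h 1 rose and 3 fell, beside 28.3% and 28.5% of all genes. In the ulna 12 fell at 3 d, 6 at 5 d and 8 at 7 d. Of 8 further genes that the naming rule misses, 6 fell at 3 d in the femur and 0 rose (median -0.57). They were the cytochrome c1 gene Cyc1, Ndufab1, Usmg5, Atpif1, 2010107E04Rik, Minos1, Higd1a and Higd2a, and not all of them encode subunits. Of 10 genes listed as cytochrome c and electron feeders, among them Gpd2, Dhodh, Coq7 and Coq9, 8 fell and 1 rose (median -1.02). Of 44 assembly factors tested, 23 fell and 3 rose at 3 d, with a median of -0.28. In the femur at 3 d 28% of all genes fell and 28.8% rose.

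The mitochondrial ribosome, which makes the mitochondrially encoded subunits, had genes called in both directions in the femur. Of 76 genes for its proteins, 16 fell and 11 rose at 3 d (median -0.07) and 11 fell and 21 rose at 7 d, at both times smaller shares than those of all genes. In the ulna 14 fell and 4 rose at 3 d and 30 fell and 0 rose at 7 d (median -0.19). Of all genes in the ulna 17.6% fell and 20.2% rose at 3 d, and 16% fell and 18.5% rose at 7 d. Of 15 regulators of mitochondrial genes 9 fell and 3 rose in the femur at 3 d, and of 14 import, channel and chaperone genes 5 fell and 6 rose. Beside them 28% of all genes fell and 28.8% rose. In the same libraries 11 of 11 macrophage markers rose at 3 d in the femur and 10 in the ulna, and 13 of 13 erythroid markers fell in both. The erythroid markers had risen in the femur at 4 h, 13 of 13. The part of these cells was not tested.

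The authors' deposited table of tests listed 82 members in the femur and 81 in the ulna. At an adjusted p under 0.05, the authors' deposited table had 30 members that fell at 4 h after full fracture, 77 at 1 d, 78 at 3 d, 62 at 7 d and 66 at 14 d, beside 31.3%, 31.6%, 34.4%, 38.8% and 34.4% of all its genes with an adjusted p. The members that rose at these times were 0, 2, 2, 4 and 4 in the authors' deposited table, beside 32%, 31.3%, 33.9%, 37.2% and 33.8%. At 4 h after full fracture the share of members that fell there was only slightly above that of all its genes. For stress fracture the authors' deposited table had 1, 18, 71, 60 and 67 falling at 4 h, 1, 3, 5 and 7 d, beside 8.13%, 8.46%, 24.9%, 27.5% and 23.3%. The rising members were 0, 0, 2, 3 and 1 in the authors' deposited table, beside 9.37%, 11.8%, 25.1%, 27.4% and 23.8% of all its genes. The sign of the log2 fold change was shared with the limma change for 82 of 82 members at 4 h, 1, 3 and 7 d and for 81 at 14 d in the femur, and for 80 or 81 of 81 at each time in the ulna, and no member called here had the other sign in the authors' deposited table. For Ndufa4l2 in the femur at 7 d the authors' deposited table gave a log2 fold change of 2.47, for Cox4i2 2.03, and for Cox6a2 at 3 d -3.08.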

How the data were processed

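RNA was measured in 67 libraries, and 3 of the 70 labelled samples were not analysed here. Per the labels' protocols, bone sections were pulverised, RNA with an integrity number above 6.5 was depleted of ribosomal RNA, and 1 × 50 bp reads were made from 1 ug. Per the submitters' processing notes, reads were handled with STAR 2.4.2a, Subread featureCounts 1.4.6 and DESeq2 on mm10, with no gene annotation named in the sources used here. The deposited tables give RPKM per gene and library, with no filter stated, and the authors' log2 fold change, p-value and adjusted p-value. The time of each ulna table rests on its sheet name, and replicate numbers are column numbers that are not tied to animals. In each bone 27 gene names that had turned into dates were left out.

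From the RPKM, libraries were scaled by median-of-ratios factors (0.8352 to 1.136 in femurs, 0.9047 to 1.107 in ulnas), genes with at least 0.5 scaled RPKM in 5 libraries were kept, and log2(value + 0.1) was fitted with limma 3.58.1 (trend and robust options) in R 4.3.3, with groups as the only term. All 35 femur libraries (19944 genes) and all 32 ulna libraries (20506 genes) were fitted separately, and all 67 together (21092 genes) for comparisons between bones, with Benjamini-Hochberg adjustment over all genes and a threshold of 0.05. These values are not counts, so no count model was used: per library, 88.86 to 91.42% of values under 20 reads were whole multiples of 1 read within 0.01, which gave depth only. The intact libraries of a bone serve all times of that bone. Values per library were planned for the isoform pairs and the most abundant member of each complex, and changes for the member with the largest change per complex and contrast or called against its complex; those of Sdhb, Uqcrfs1 and Cox7a2l were added after their values were seen. The members and the gene lists were chosen with earlier results of these data known. The fits were also run on simulated data with independent noise per gene and changes added to a small random set of genes. In the real libraries the members move together and a large share of all genes is called, so that run does not measure the error here. Alternatives were RPKM as deposited, upper-quartile scaling, no filter, a pseudocount of 1, only the compared groups in the fit, and each library left out. Tables and figures were made with Python 3.11.15, pandas 2.3.3, numpy 2.4.6 and matplotlib 3.10.9.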

Additional observations from a re-analysis of the deposited data

Results flagged for a closer look

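Libraries standing apart from the others of their group were looked for in 276 sets of values, and 16 were found, where chance gives about 1 in 20. In intact femurs 1 library was far below the others for Cox6a2 (228 RPKM), Cox8b (230.4) and Cox6b1 (100.2), and 1 library had a log2 ratio of Cox6b2 to Cox6b1 of -4.39, above the rest. In injured femurs the single libraries apart were low for Cox6a1 at 4 h (55.4) and for Cox7a2 at 3 d (32.5), and high for Cox6b1 at 3 d (121) and for Sdha at 7 d (68.6). Among their ratios, the log2 ratio of Cox7a1 to Cox7a2 was low in 1 library at 1 d (-0.46), that of Ndufa4l2 to Ndufa4 high in 1 at 4 h (-1.81) and that of Cox6b2 to Cox6b1 low in 1 at 7 d (-7.44). In ulnas 1 library was low for Atp5a1 at 7 d (206) and for Cox7a1 at 5 d (91.1), and 1 was high for Cox6b1 at 1 d (210.1). The log2 ratio of Cox7a1 to Cox7a2 was high in 1 ulna library at 4 h (2.09), and that of Ndufa4l2 to Ndufa4 in 1 at 3 d (0.11).

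The change after full fracture differed from that after stress fracture, by the test of the difference itself, for 35 members at 4 h, 19 at 1 d, 26 at 3 d and 15 at 7 d, of 82. Of all genes tested, 18.2% differed with the more negative change after full fracture and 17.8% with the more positive one at 4 h, 13.4% and 13.8% at 1 d, 13.6% and 12.7% at 3 d and 23.5% and 23.5% at 7 d, so at 7 d the share of members was below that of all genes. At 4 h the named differences were -1.45 for Cox6a2, -1.23 for Cox8b, -1.12 for Cox7a1, -0.82 for Uqcr11, -0.76 for Ndufa5, -0.73 for Uqcr10, -0.72 for Atp5k, -0.63 for Ndufa4, -0.62 for Sdhb, -0.55 for Cox6b1 and -0.51 for Cox4i1, each on the log2 scale. At 1 d they were -1.36 for Cox6a2, -1.19 for Cox8b, -1.001 for Atp5g1, -0.85 for Ndufb5 and -0.72 for Sdhb. At 3 d they were -2.15 for Cox7a1, -1.95 for Cox6a2, -1.72 for Cox8b, -0.83 for Atp5g1, -0.77 for Sdhb, -0.73 for Ndufs7, -0.73 for Uqcrfs1, 0.57 for Cox6a1 and 0.48 for Cox8a. At 7 d they were -2.35 for Cox6a2, -2.20 for Cox8b, -2.09 for Cox7a1, -0.84 for Atp5g1, -0.66 for Uqcrfs1, 0.60 for Cox7a2, 0.83 for Cox8a, 1.44 for Cox6a1, 1.61 for Ndufa4l2 and 2.01 for Cox4i2. Bone, injury and marrow removal differ together in all of these and cannot be told apart.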

How the results depend on the processing

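The counts of members called that moved by over 1.5 times with another setting are these, and the cause was not tested. With only the compared groups in the fit, the count went from 49 to 27 at 4 h after full fracture, from 14 to 43 for 14 d against 3 d, from 7 to 3 at 1 d after stress fracture, from 1 to 0 for 7 d against 3 d, and, for the difference between injuries, from 35 to 20 at 4 h and from 19 to 30 at 1 d. With upper-quartile scaling it was 75 at 4 h after full fracture and 3 at 1 d after stress fracture, and for the difference between injuries 71 at 4 h, 47 at 1 d, 40 at 3 d and 25 at 7 d. With RPKM as deposited it was 74 at 5 d after stress fracture, 33 between intact bones, and for the difference between injuries 62 at 4 h, 15 at 3 d and 24 at 7 d. Without the filter on low values it was 0 at 4 h and 4 at 1 d after stress fracture and 15 for the difference at 3 d, and with a pseudocount of 1 it was 0 at 4 h after stress fracture. These scalings also moved the median log2 change of all genes, with upper-quartile scaling to -0.24 at 4 h and -0.25 at 7 d in the femur and -0.29 for the difference at 7 d, and with RPKM as deposited to -0.28 at 7 d in the femur and -0.18 at 5 d in the ulna. With single libraries left out, the counts lay between 16 and 73 at 4 h, 3 and 18 for 14 d against 3 d, 0 and 1 at 4 h in the ulna, 0 and 13 at 1 d, 27 and 51 at 5 d, 25 and 58 at 7 d, 0 and 2 for 7 d against 3 d, and for the difference 7 and 65 at 4 h, 6 and 41 at 1 d and 7 and 41 at 3 d. Over all members and contrasts no called value changed sign, while Cox7a2l between intact bones, not called (-0.06), was called in the other direction with RPKM as deposited (0.16). The falls of Cox6a2, Cox7a1 and Cox8b and the rises of Cox6a1 and Cox8a in the femur at 3, 7 and 14 d, and the rises of Ndufa4l2 and Cox4i2 at 7 d, kept their call in every alternative run. No paired analysis was possible because the table columns could not be tied to animals. Precision is limited by depth in the 7 members with a median under 100 reads.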
